A study of Rattus norvegicus with 6 samples.

Results

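Prostaglandin E2 is a lipid signal, made from arachidonic acid, known for its part in pain and inflammation, also in the intervertebral disc. Described here are the transcripts of the genes that release its precursor, make it, break it down and receive it. They were chosen by name: Pla2g4a, Ptgs1, Ptgs2, Ptges, Ptges2, Ptges3, Ptgis, Hpgd, Ptger2 and Ptger4. Of these 10 genes, 9 were matched by symbol among 32623 genes, and Ptgis was not analysed here. The cells were nucleus pulposus cells, from the soft centre of the disc, taken at 4 weeks of age from the lumbar spine of male rats of the Sprague-Dawley strain and expanded in culture with serum to passages 3 to 5. Both groups received a lentivirus for 72 hours before RNA was taken, so there is no group without virus. In 3 libraries (shBmal1) the virus carried an shRNA that silences the clock gene Bmal1, and in the other 3 (shNC) a negative control. No source used here says how many hairpin sequences there were, or whether same-group libraries are independent cultures. The p-values measure the spread between these libraries, which may be technical.

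Prostaglandin synthesis runs in 3 steps. Cytosolic phospholipase A2 (Pla2g4a) frees arachidonic acid from membrane phospholipids, and the cyclooxygenases COX-1 (Ptgs1, usually constitutive) and COX-2 (Ptgs2, the inducible form) turn it into prostaglandin H2. Terminal synthases (Ptges, Ptges2, Ptges3) convert this into prostaglandin E2, which acts on G protein-coupled receptors. Of these, EP2 (Ptger2) and EP4 (Ptger4) raise cyclic AMP, and the dehydrogenase encoded by Hpgd inactivates the signal. In disc cells, prostaglandin E2 is best known as a product of inflammatory stimulation.

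Ptgs2 and Ptges2 transcripts were higher in shBmal1, by 12.0-fold and 9.77-fold, while Pla2g4a was 2.84-fold and Ptgs1 1.64-fold lower. Hpgd and Ptger4 were higher too, but from a few counts per shNC library. Ptges3 was 1.19-fold higher, a call that did not hold under several other settings. Ptges did not pass the test, and Ptger2 had too few counts to be tested. In numbers, 8 of the 9 genes were tested, 5 were called higher, 2 lower and 1 was not called. Of the 5 higher, Hpgd and Ptger4 passed the filter on low counts only through shBmal1, the group where they are high. A call here means a Benjamini-Hochberg adjusted p under 0.05 in edgeR's quasi-likelihood test, adjusted over all 14342 genes tested. In the same comparison 71.3% of all tested genes were called, 36.0% higher and 35.3% lower. With most tested genes called, being called does not in itself set a member apart. In 7 of the 8 tested members, Hpgd and Ptger4 among them, no library of one group reached into the range of the other. This held for 77.3% of tested genes.

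The libraries of the groups differed in ways that touch each result. Bmal1 itself, listed as Arntl, had FPKM values (read fragments corrected for the length of the gene and the depth of the library) of 8.38, 9.19 and 9.90 in shNC and 0.716, 1.39 and 0.690 in shBmal1. Its log2 fold change was −3.37 ± 0.26 (standard error). The shNC libraries held 44043803 to 49783710 counts, the shBmal1 libraries 8773762 to 11679587, a 4.44-fold difference between means. A count of 3, the limit that a count of 0 allows, corresponds to 0.0637 to 0.0712 CPM (counts scaled to library size) in shNC and 0.245 to 0.323 CPM in shBmal1. These limits cover counting error only. Mitochondrial ribosomal RNA took 0.033% to 0.0602% of counts in shNC and 0.722% to 1.31% in shBmal1. FPKM summed over genes came to between 410231 and 418147 in shNC, while the shBmal1 sums lay between 565293 and 598765. Rescaling each library to the same sum, as TPM does, therefore lowers all shBmal1 values relative to shNC. The median log2 fold change over all tested genes was −0.01 in the main analysis and −0.36 in TPM, and the share of calls that were higher went from 50.5% to 36.7%. Depth and ribosomal share cannot be told apart from the hairpin, and their part in the results below was not tested.

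**Figure D1:**
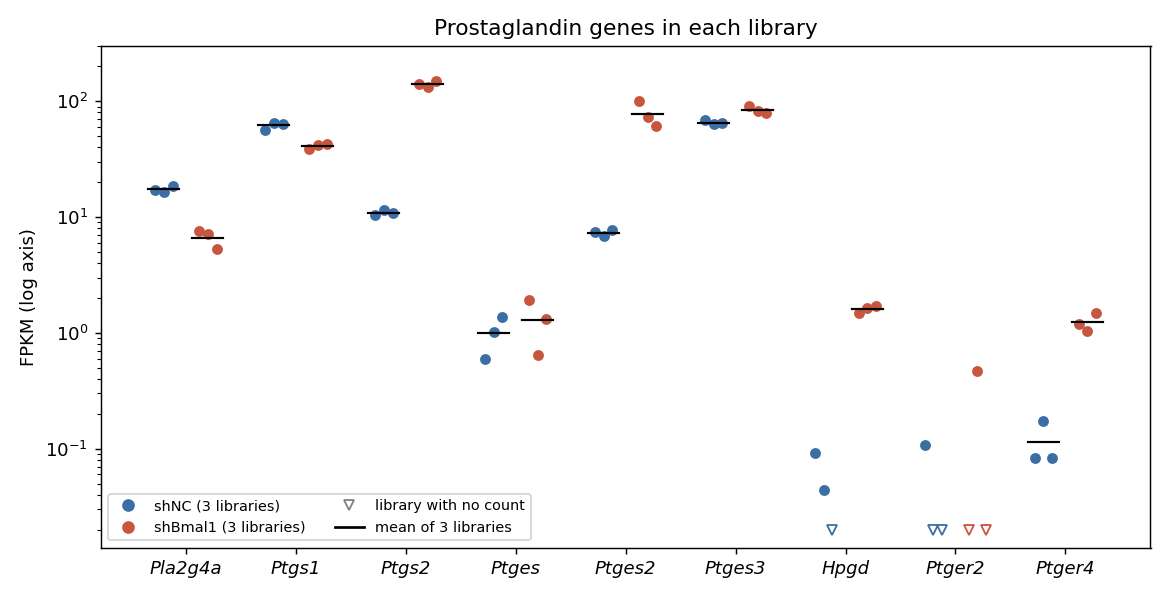
FPKM of the 9 genes in each of the 6 libraries on a log axis, 1 point per library, with blue for shNC, red for shBmal1, a line at the mean of 3 libraries, and open triangles for libraries without a count, where no mean is drawn. The Ptgs2 and Ptges2 points of shBmal1 lie far above those of shNC, and the Ptges points of both groups intermingle.

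For the step that frees arachidonic acid, the transcript of cytosolic phospholipase A2 was lower. Pla2g4a (ENSRNOG00000002657, chromosome 13, 66988937 to 67206693, minus strand in the coordinates of the deposited table) had 17.2, 16.6 and 18.6 FPKM in shNC. The shBmal1 libraries had 7.57, 7.07 and 5.30 FPKM, all below the lowest shNC library. The mean fell from 64.1 ± 3.42 CPM to 22.7 ± 4.24 CPM (SD, n = 3 each). The log2 fold change was −1.50 ± 0.14, with a 95% interval of −1.83 to −1.18 and an edgeR adjusted p of 2.94e-05. In RNA from whole cultures, fewer cells that express a gene and less RNA per cell cannot be told apart, and this holds for every value given here.

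Other genes that set the supply of arachidonic acid moved in both directions. Of 20 listed phospholipases and their modulators, 11 were tested, of which 4 were higher, 5 lower and 2 not called (median log2 fold change −1.23, against −0.01 over all tested genes). Anxa1, which encodes annexin A1, a glucocorticoid-regulated protein known as an inhibitor of phospholipase A2, was lower at 778 CPM in shNC against 274 CPM in shBmal1 (log2 −1.50). The lysosomal phospholipase gene Pla2g15 was lower by a larger factor (log2 −2.59). Plaa, named for activating phospholipase A2, was higher at 41.8 against 79.0 CPM (log2 0.92). Pla2g1b, a secreted phospholipase best known from pancreas, had no count in any shNC library and 45, 32 and 23 counts in the shBmal1 libraries, at least 133-fold higher against a floor of 3 counts over the shNC group. Of the 4 higher genes 2, Pla2g1b among them, passed the filter on low counts only through shBmal1, and 2 of the 5 lower ones only through shNC.

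The cyclooxygenases moved in opposite directions. Their promoters are shown with that of Pla2g4a, because these 3 genes moved at well-counted levels and Ptgs2 carries a canonical E-box, the element that the CLOCK and BMAL1 pair is known to bind. Each is the 250 bases before the transcription start of the RefSeq gene model on GRCr8, printed 5′ to 3′ on the gene's strand. Capitals mark letters that match a searched motif.
Ptgs2 (chr13:64713813-64714062, plus strand): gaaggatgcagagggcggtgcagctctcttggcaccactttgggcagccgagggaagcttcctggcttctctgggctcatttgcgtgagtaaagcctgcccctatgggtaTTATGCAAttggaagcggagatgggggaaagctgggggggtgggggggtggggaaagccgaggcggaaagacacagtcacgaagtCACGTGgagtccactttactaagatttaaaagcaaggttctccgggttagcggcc
Ptgs1 (chr3:39981169-39981418, plus strand): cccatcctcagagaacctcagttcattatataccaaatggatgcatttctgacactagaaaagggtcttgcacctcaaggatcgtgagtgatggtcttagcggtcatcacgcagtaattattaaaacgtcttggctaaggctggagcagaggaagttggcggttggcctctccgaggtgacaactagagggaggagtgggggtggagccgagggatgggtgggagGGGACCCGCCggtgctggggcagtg
Pla2g4a (chr13:64572353-64572602, minus strand): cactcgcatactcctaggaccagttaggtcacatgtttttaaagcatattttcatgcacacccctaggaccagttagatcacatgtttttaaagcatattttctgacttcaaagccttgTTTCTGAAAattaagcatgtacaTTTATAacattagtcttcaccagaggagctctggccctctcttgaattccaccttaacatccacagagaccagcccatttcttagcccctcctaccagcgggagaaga

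In the Ptgs2 promoter the E-box CACGTG lies 55 to 50 bases before the start, and TTATGCAA, a match to the loose C/EBP-like pattern TTNNGNAA, lies 140 to 133 bases before it. The Ptgs1 promoter holds GGGACCCGCC, a match to a loose NF-kB pattern, 25 to 16 bases before the start. The Pla2g4a stretch holds overlapping C/EBP-like matches on both strands and TATAAA on the opposite strand, 108 to 103 bases before the start. Searched on both strands over the 300 bases that RefSeq gives around each of 33469 starts, CACGTG occurred in 6.42% of promoters, the C/EBP-like patterns TTGCGCAA or TTNNGNAA in 41.3%, and TATAAA in 14.2%. The NF-kB patterns occurred in 19.3% and, among the members, in Ptgs1, Ptges3 and Ptger2. The cyclic AMP response element TGACGTCA (1.83% of promoters) and the AP-1 patterns TGAGTCA or TGACTCA (4.63%) were found in no member. Its shorter form TGACG, in 21.2% of promoters, was found in Ptges3 and Hpgd. Of the 9 members, 8 have an entry in the promoter table, all but Ptges2. Of these 8, Ptgs2 and Hpgd hold CACGTG, Hpgd 23 to 28 bases after its start. A match of letters is a description and shows no binding.

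Ptgs2 (ENSRNOG00000002525, chromosome 13, 67351087 to 67359335, plus strand) had 10.3, 11.6 and 10.9 FPKM in shNC and 141, 132 and 151 FPKM in shBmal1. The groups lie far apart, and within each the libraries differ little. In scaled counts the mean went from 51.9 ± 2.78 CPM to 622 ± 35.9 CPM (SD, n = 3 each). This is a log2 fold change of 3.58 ± 0.08 (95% interval 3.41 to 3.76, edgeR adjusted p = 3.83e-08). By mean FPKM the gene ranked 5046 among all genes in shNC and 644 in shBmal1. Its fold change ranked 1112 from the highest among the tested genes, so many others had larger estimates. Some of these rest on few or no shNC counts, as for Hpgd at rank 788. Although the shBmal1 libraries are the shallower ones, they hold more raw Ptgs2 counts (5798, 7168 and 7932) than the shNC libraries (2209, 2587 and 2152).

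Ptgs1 (ENSRNOG00000007415, chromosome 3, 15560712 to 15582344, plus strand) had 56.3, 65.3 and 63.9 FPKM in shNC and 38.4, 41.5 and 42.5 FPKM in shBmal1. All shBmal1 libraries lie below the lowest shNC library. Mean levels were 188 ± 13.3 CPM and 115 ± 5.33 CPM (SD, n = 3 each). The log2 fold change was −0.71 ± 0.07 (95% interval −0.88 to −0.54, edgeR adjusted p = 6.19e-05).

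Read within a library, where the scaling between libraries cancels out, the balance of the cyclooxygenases turned over. The shNC libraries had 0.183, 0.177 and 0.170 units of Ptgs2 per unit of Ptgs1 FPKM, and the shBmal1 libraries 3.68, 3.19 and 3.55. This ratio was thus 19.6-fold higher in shBmal1, or 4.29 on the log2 scale. An exact two-sided permutation test over libraries gave p = 0.1, the minimum for this design, and 0.1 after adjustment over the 2 ratios that could be tested. Ptgs2 made up 15.0% ± 0.48 of the summed cyclooxygenase FPKM in shNC and 77.6% ± 1.29 in shBmal1 (SD, n = 3 each). The sum itself was 72.8 ± 5.46 FPKM and 182 ± 9.97 FPKM.

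**Figure D2:**
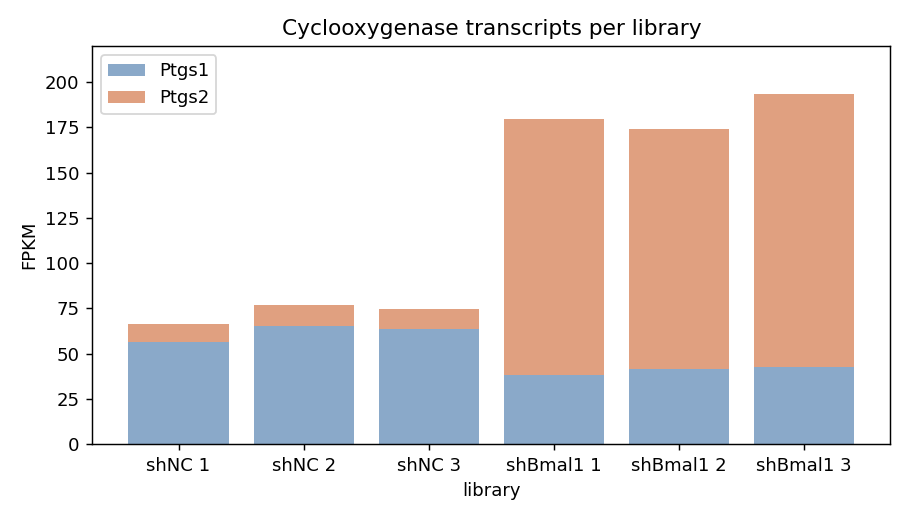
Stacked bars of Ptgs1 (blue) and Ptgs2 (orange) FPKM in each of the 6 libraries, from 0. Ptgs1 fills most of each shNC bar, and Ptgs2 fills most of each shBmal1 bar, where the whole bar is also taller.

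Ptgs2 and Pla2g4a sit next to each other in the genome. They are transcribed away from each other, Pla2g4a from the minus and Ptgs2 from the plus strand, with 144.394 kb between them. The phospholipase was lower and the cyclooxygenase higher. Within 500 kb of the pair the table lists 14 genes, 7 of them tested, including the pair itself. Prg4, which encodes the joint lubricant lubricin, was higher (0, 12 and 8 counts in shNC, 43, 51 and 47 in shBmal1, log2 4.79). Hmcn1, an extracellular matrix gene, was lower at 55.4 against 11.8 CPM (log2 −2.24). Pdc, which encodes the photoreceptor protein phosducin, had no count in shNC and 42, 34 and 7 counts in shBmal1, at least 110-fold higher against the floor of 3 counts over the shNC group. Prg4 and Pdc passed the filter on low counts only through shBmal1. Odr4 (log2 −0.12, edgeR adjusted p = 0.613) and the nuclear pore gene Tpr (log2 0.09, edgeR adjusted p = 0.199) were not called. No gene of the table overlaps a member on either strand.

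**Figure D3:**
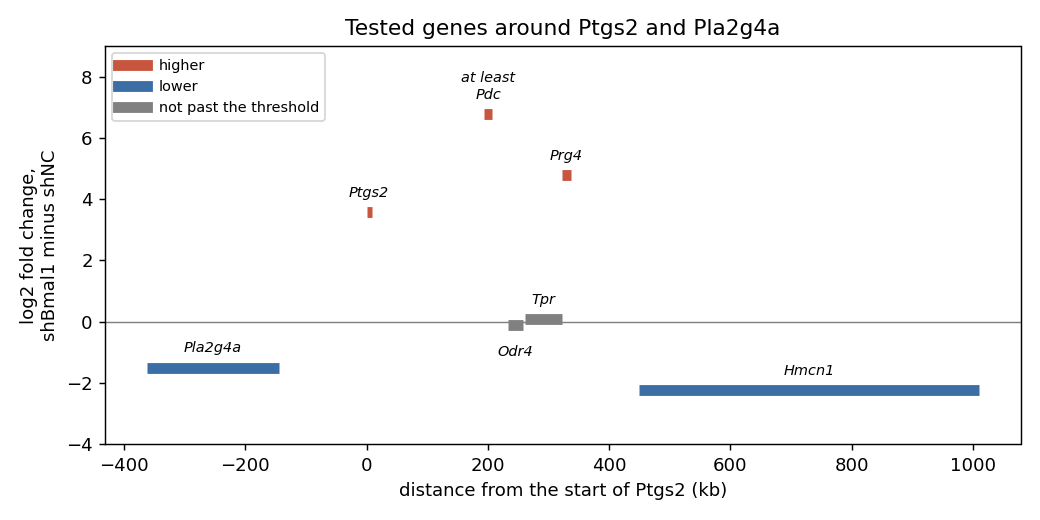
Log2 fold change (shBmal1 minus shNC) of the 7 tested genes near Ptgs2 and Pla2g4a against distance in kb from the start of Ptgs2, each bar spanning its gene. Genes with opposite directions and genes not called lie side by side, and Pdc is drawn at its lower bound because it had no count in shNC.

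The 3 prostaglandin E synthases did not move as a group. Ptges encodes the membrane-bound, inducible enzyme that is classically coupled to COX-2. Ptges2 encodes a second membrane-associated form, and Ptges3 a cytosolic one, better known as p23, a co-chaperone of HSP90.

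Ptges (ENSRNOG00000006320, chromosome 3, 9727408 to 9738752, minus strand) had 0.601, 1.01 and 1.36 FPKM in shNC and 1.91, 0.646 and 1.32 FPKM in shBmal1. The groups overlap, and the highest and lowest shBmal1 libraries differ more than the group means. These values rest on 37, 65 and 78 counts in shNC and 23, 11 and 20 in shBmal1. The log2 fold change was 0.30 ± 0.53, with a 95% interval of −0.94 to 1.54 (edgeR adjusted p = 0.638). The interval spans changes in both directions, so these libraries do not settle whether Ptges changed. The whole interval lies below that of Ptgs2, although the difference between the genes was not tested.

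Ptges2 (ENSRNOG00000014050, chromosome 3, 11424099 to 11431402, plus strand) had 7.42, 6.86 and 7.75 FPKM in shNC and 99.5, 72.5 and 60.6 FPKM in shBmal1. The shBmal1 libraries spread more widely than those of most members, but the lowest is still many times the highest shNC library. Means were 17.3 ± 1.01 CPM and 169 ± 44.6 CPM (SD, n = 3 each), a log2 fold change of 3.29 ± 0.19 (95% interval 2.86 to 3.72, edgeR adjusted p = 1.87e-06). By mean FPKM the gene moved from rank 6482 to rank 1152. The genes on either side, looked up after these values were seen, were not called. They are Lcn2, 6.553 kb away (log2 1.61, edgeR adjusted p = 0.0554), and Slc25a25, 10.995 kb away (log2 0.00, edgeR adjusted p = 0.997).

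Per unit of Ptges2 FPKM, the shNC libraries had 0.0809, 0.147 and 0.176 of Ptges, and the shBmal1 libraries 0.0192, 0.0089 and 0.0218. This ratio was lower in every shBmal1 library, 8.25-fold on average (log2 −3.04, exact two-sided permutation p = 0.1, the smallest possible, and 0.1 after adjustment over the 2 ratios). Between these synthases, then, Ptges2 had the higher FPKM in every library of both groups.

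Ptges3 (ENSRNOG00000002642, chromosome 7, 2479311 to 2497013, plus strand) had 68.5, 63.0 and 64.4 FPKM in shNC and 90.6, 81.8 and 78.8 FPKM in shBmal1. The groups do not overlap, but the step between them is small. Means were 118 ± 6.27 CPM and 140 ± 11.2 CPM (SD, n = 3 each), a log2 fold change of 0.25 ± 0.08 (95% interval 0.06 to 0.43, edgeR adjusted p = 0.0221). The call was lost when any of 4 single libraries was left out, with adjusted p = 0.0813 without shNC 2, 0.0771 without shNC 3, 0.0766 without shBmal1 1 and 0.0609 without shBmal1 2. Its direction turned in TPM (log2 −0.13, limma adjusted p = 0.147) and on quantile-normalized FPKM (log2 −0.19, limma adjusted p = 0.0972), and it was called in 11 of 18 alternatives.

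Related p23 genes were looked at because near copies can share reads. Ptges3l1, on the X chromosome (45410546 to 45419817), had 59, 70 and 77 counts in shNC and 287, 444 and 410 in shBmal1. Its mean of 1.55 ± 0.26 CPM in shNC stood against 33.7 ± 2.67 CPM in shBmal1 (log2 4.44 ± 0.17, edgeR adjusted p = 3.01e-07). How the authors' counting split reads between it and Ptges3 is uncertain. Ptges3l, on chromosome 10, was lower (17.7 ± 1.42 against 6.70 ± 1.85 CPM, log2 −1.41 ± 0.21, edgeR adjusted p = 0.000487).

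The chaperone partners of p23 were mostly higher. Of 25 listed HSP90 chaperones and co-chaperones tested, 16 were higher, 7 lower and 2 not called (median log2 fold change 1.04, against −0.01 over all tested genes). Those with the smallest p-values were Hsph1, an HSP110 nucleotide exchange factor (59.1 against 2542 CPM, log2 5.43), and Hspa1b, inducible HSP70 (92.0 against 4644 CPM, log2 5.66). Lower ones included Stub1, the ubiquitin ligase CHIP (log2 −1.05), and Hsp90b1, the HSP90 of the endoplasmic reticulum (log2 −0.60). The cytosolic HSP90 genes, named after their values were seen, were both higher, with Hsp90aa1 at 197 against 1738 CPM (log2 3.14) and Hsp90ab1 at 1133 against 3606 CPM (log2 1.67).

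**Figure D4:**
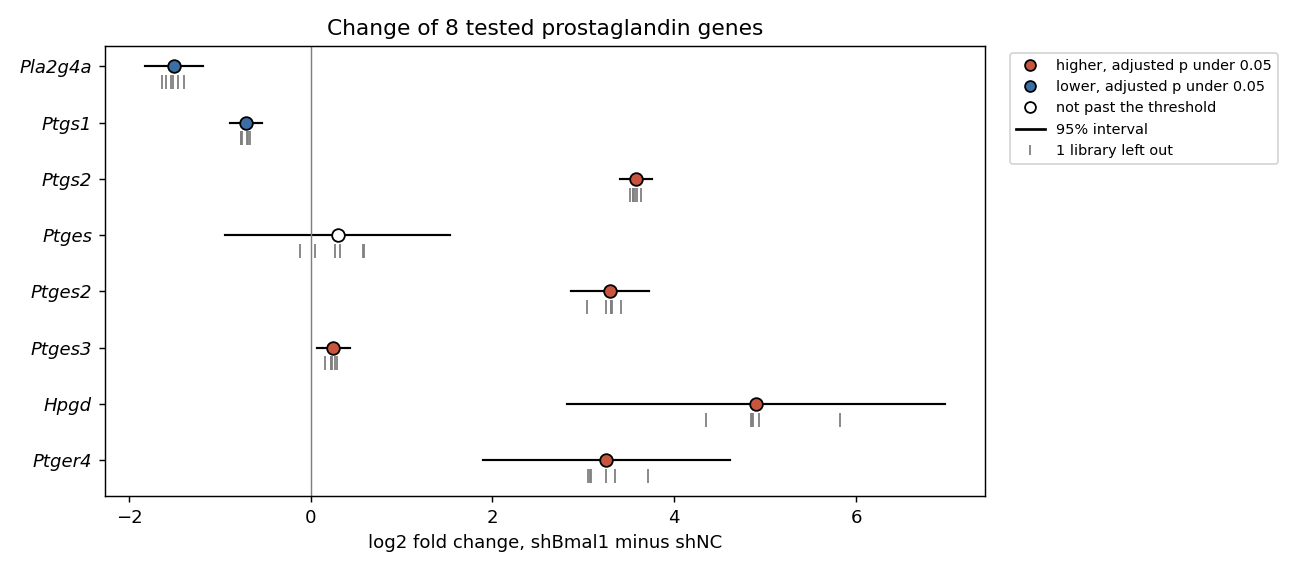
Log2 fold change (shBmal1 minus shNC) of the 8 tested members with 95% intervals from edgeR as lines, red for higher, blue for lower and white for not called. Grey ticks give the value with 1 library left out. Ptgs2 and Ptges2 have narrow intervals above 2, Pla2g4a and Ptgs1 lie below 0, the intervals of Hpgd and Ptger4 are wide, and that of Ptges spans 0.

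Hpgd, whose product 15-hydroxyprostaglandin dehydrogenase starts the breakdown of prostaglandin E2, was barely present in control cells. The gene (ENSRNOG00000010610, chromosome 16, 37457135 to 37495758, minus strand) had 8, 4 and 0 counts in shNC and 24, 35 and 35 in shBmal1. In FPKM this is 0.0915, 0.0439 and no count against 1.48, 1.65 and 1.70. The counts were higher in every shBmal1 library in spite of the lower depth. The log2 fold change was 4.90 ± 0.90, with a wide 95% interval of 2.82 to 6.98 (edgeR adjusted p = 0.00147), and on the log2(FPKM + 1) scale with quantile scaling it came to 1.12. Hpgd passed the filter on low counts only through shBmal1, as did Ptger4. For both genes 0 shNC and 3 shBmal1 libraries reached the filter's level. The groups therefore had to lie apart in counts scaled to the library total. The ratio of Ptgs2 to Hpgd FPKM could not be formed in shNC 3. Its log2 difference between groups was 0.08 with 0.1 added to both values (exact two-sided permutation p = 0.8), a constant above every shNC value of Hpgd. Without shNC 3 the difference was −0.97 (exact permutation p = 0.1, the smallest possible with the libraries left).

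Genes that move or break down prostaglandins otherwise lay mostly lower. Of 12 listed genes 10 were tested, of which 1 was higher, 7 lower and 2 not called (median log2 fold change −1.24, against −0.01 over all tested genes). Slco2a1, the transporter that takes prostaglandins up for breakdown by the Hpgd product, was lower at 25.0 against 3.56 CPM (log2 −2.81). Abcc4, an exporter of prostaglandin E2, was lower at 39.3 against 14.2 CPM (log2 −1.47). Ptgr1, a prostaglandin reductase that acts downstream of Hpgd, was the one called higher (20.1 against 31.6 CPM, log2 0.65).

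The receptor genes among the members, Ptger4 and Ptger2, were low throughout. Ptger4 (ENSRNOG00000013240, chromosome 2, 54952821 to 54963448, minus strand) had 6, 14 and 6 counts in shNC and 17, 19 and 27 in shBmal1. These are 0.0828, 0.174 and 0.0837 FPKM against 1.19, 1.03 and 1.47 FPKM, without overlap. The log2 fold change was 3.25 ± 0.59 (95% interval 1.90 to 4.61, edgeR adjusted p = 0.00132). Means were 0.191 ± 0.092 CPM and 1.87 ± 0.34 CPM (SD, n = 3 each), so even the higher group held few transcripts.

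Ptger2 (ENSRNOG00000050968, chromosome 15, 19338175 to 19350210, plus strand) had 11, 0 and 0 counts in shNC and 0, 12 and 0 in shBmal1. It was seen in 1 library of each group, at 0.109 FPKM in shNC 1 and 0.465 FPKM in shBmal1 2. It did not pass the filter on low counts, and without that filter its log2 fold change of 1.88 had an edgeR adjusted p of 0.494. No difference was detectable at this depth. With 0.1 FPKM added, the log2 ratio of Ptger4 to Ptger2 differed by 2.18 between groups (exact two-sided permutation p = 0.2).

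The other prostanoid receptors lay mostly lower. Of 11 listed receptor genes 7 were tested, with 1 higher, 5 lower and 1 not called (median log2 fold change −1.18, against −0.01 over all tested genes). Ptgfrn, a negative regulator of the prostaglandin F2 alpha receptor, was lower at 262 against 115 CPM (log2 −1.18). Ppard, a nuclear receptor for fatty acids and proposed for prostacyclin, was lower at 59.0 against 23.2 CPM (log2 −1.35). Pparg was the one called higher (3.90 against 7.08 CPM, log2 0.86, edgeR adjusted p = 0.0258), a call that was lost without shNC 1, shNC 2, shNC 3 or shBmal1 2, with log2 fold changes of 0.55 to 0.91 and adjusted p from 0.0534 to 0.0913. In TPM it came to 0.37 (limma adjusted p = 0.168). Ptger1, the EP1 receptor, and Ptgfr, the prostaglandin F receptor, named after their values were seen, were lower (17.4 against 7.04 CPM, log2 −1.30, and 20.7 against 5.40 CPM, log2 −1.93).

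Genes downstream of EP2 and EP4, which act through cyclic AMP, went both ways. Of 35 tested rows of the list, 17 were higher, 14 lower and 4 not called, with a median log2 fold change of 0.21. Gnas has 2 rows. The filter was passed only through shBmal1 by 2 of the higher and only through shNC by 1 of the lower. Sik1, a kinase induced by cyclic AMP, was higher at 4.88 against 37.3 CPM (log2 2.94), and so was Akap12, an anchor of protein kinase A (log2 1.08). Creb3l1, a membrane-tethered transcription factor of the CREB family, was lower at 303 against 49.6 CPM (log2 −2.61), as was Adcy6, an adenylyl cyclase (141 against 47.6 CPM, log2 −1.57). The response genes Nr4a1 and Nr4a3, named after their values were seen, moved in opposite directions (log2 −2.55 and 3.75).

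Genes known to induce or restrain Ptgs2 went both ways. Of 36 tested, 21 were higher, 7 lower and 8 not called (median log2 fold change 0.64, against −0.01 over all tested genes). Jun, a component of AP-1, was higher at 54.9 against 1128 CPM (log2 4.36), and the stress-induced repressor Atf3 at 1.89 against 81.8 CPM (log2 5.43). Mapk14, which encodes p38 alpha, a kinase that stabilizes Ptgs2 mRNA, was lower at 85.0 against 23.7 CPM (log2 −1.84). Zfp36l1, which encodes a protein that promotes decay of AU-rich mRNAs, was lower too (log2 −0.99). Il1a was higher (37, 25 and 31 counts in shNC, 25, 16 and 40 in shBmal1, log2 1.79, edgeR adjusted p = 0.0129). Il1b and Tnf, also cytokines that induce Ptgs2, had at most 4 and 7 counts in any shNC library and none in shBmal1. Neither was tested, and with so few counts and the lower depth of shBmal1 no difference can be read from them. Il6 was higher (13, 49 and 8 counts in shNC, 41, 32 and 30 in shBmal1, log2 2.62, edgeR adjusted p = 0.0104), but passed the filter on low counts only through shBmal1. Also higher were Fosl1, an AP-1 component (log2 6.54), and Nfkbia, an NF-kB inhibitor and target (log2 3.23). These 6 genes were named after their values were seen.

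The remaining branches complete the picture of the pathway. Among 13 listed synthases of other prostanoids, 7 were tested, with 2 higher, 3 lower and 2 not called (median log2 −0.72). Akr1b8, an aldo-keto reductase, was higher at 47.0 against 556 CPM (log2 3.57), and Akr1b1, which can act as a prostaglandin F synthase, at 86.0 against 147 CPM (log2 0.78). Prxl2b, the prostamide and prostaglandin F synthase, had 106, 70 and 119 counts in shNC and none in shBmal1, at least 24.7-fold lower against a floor of 3 counts over the shBmal1 group. Cbr3, a carbonyl reductase, was lower (log2 −2.56, edgeR adjusted p = 0.0203), and kept that size with single shNC libraries left out (log2 −2.63, −2.46 and −2.56 without shNC 1, 2 and 3), where its adjusted p ran from 0.0508 to 0.064 and the call was lost. Of 24 listed genes of the lipoxygenase and epoxygenase branches 10 were tested, with 5 higher, 3 lower and 2 not called. All 5 that were higher passed the filter on low counts only through shBmal1. Lta4h, the leukotriene A4 hydrolase, was lower at 58.6 against 32.2 CPM (log2 −0.86), as was the epoxide hydrolase Ephx1 at 11.7 against 2.88 CPM (log2 −2.04).

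Over these 5 branches together 45 listed genes outside the members were tested, of which 13 were higher, 23 lower and 9 not called, with a median log2 fold change of −1.01. Of the 13 higher, 7 passed the filter only through shBmal1, and of the 23 lower, 4 only through shNC, Cbr3 and Prxl2b among them. The genes that the table itself annotates to arachidonic acid metabolism, of which 35 were tested, split into 14 higher, 15 lower and 6 not called (median log2 0.06), 8 of the higher ones having passed only through shBmal1 and 3 of the lower ones only through shNC. That set includes 6 of the members. In TPM the counts of higher genes in these sets were 8 and 7.

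**Figure D5:**
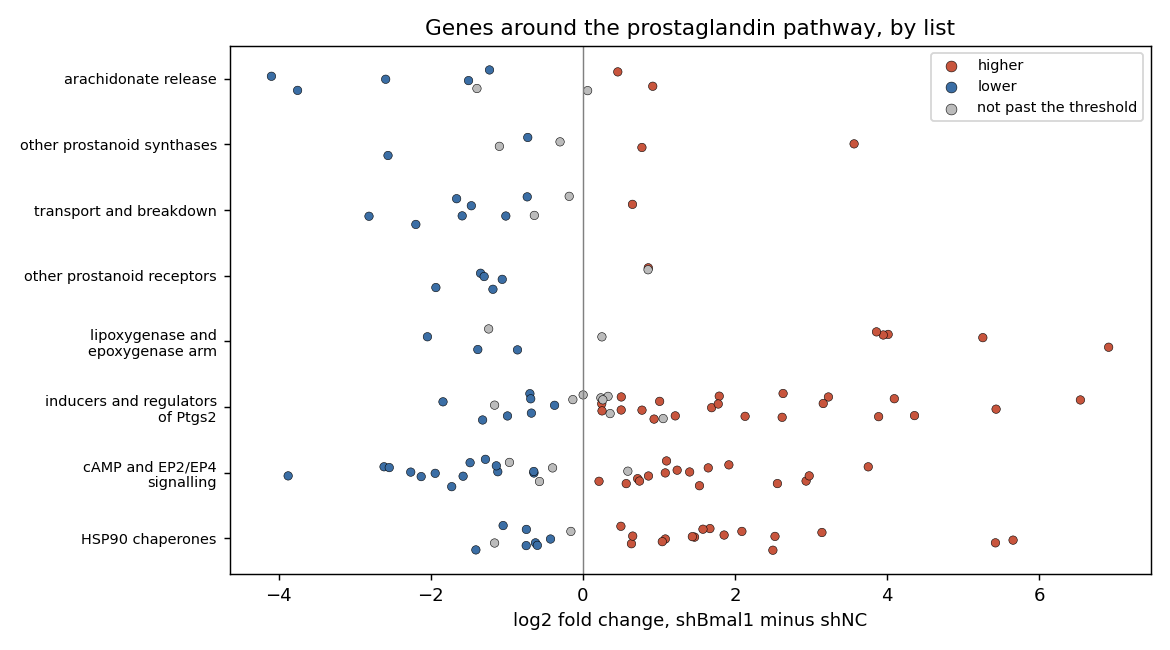
Log2 fold change (shBmal1 minus shNC) of the tested genes of each pathway list, 1 point per gene, red for higher, blue for lower and grey for not called, leaving out members and genes without a count in 1 group. The HSP90 list lies mostly above 0 and the list on transport and breakdown mostly below it.

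Per length, and so comparable between genes, the order of levels changed. In shNC cells Ptges3 and Ptgs1 led with overlapping FPKM values, followed by Pla2g4a, Ptgs2, Ptges2 and Ptges, each above the next in every library. Ptger4, Hpgd and Ptger2 came last and overlapped. In shBmal1 cells Ptgs2 led in every library, ahead of Ptges3 and Ptges2, which overlapped, then Ptgs1 and Pla2g4a. Ptges overlapped with both Hpgd and Ptger4, Hpgd lay above Ptger4 in every library, and Ptger2 was last.

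The labelled cell type and other cells that make prostaglandins were checked by marker transcripts, of which the 3 with the highest mean FPKM over all libraries are named per list. The 19 nucleus pulposus and notochord markers summed to 623 to 643 FPKM in shNC and 377 to 425 FPKM in shBmal1. Of 15 tested, 3 were higher, 5 lower and 7 not called. Basp1 (log2 0.03) and Lgals3 (log2 −0.06) were not called and Pax1 was lower (log2 −2.63), while Shh and Tbxt had no count in any library. The other lower ones, named after their values were seen, were the matrix genes Acan (85.9 against 4.68 FPKM, log2 −4.30) and Col2a1 (log2 −5.21), the keratin gene Krt8 (log2 −1.23) and the adhesion gene Ncam1 (log2 −1.10). The 3 higher ones, also named after their values were seen, were Foxf1 (18.5 against 29.5 FPKM, log2 0.56), Ca3 (log2 1.35) and Ibsp (log2 1.62). The cells labelled nucleus pulposus thus held less RNA of some listed markers in shBmal1 and more of others.

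Markers of other cell types moved as well. Macrophage and leukocyte markers (15 genes) summed to 17.9 to 24.7 FPKM in shNC and 31.1 to 49.4 FPKM in shBmal1, and C1qb and Tyrobp had no count in any library. Of 5 tested, Cd14 was lower (19.2 against 15.7 FPKM) and 4 were higher, among them Fcer1g (0.14 against 17.0 FPKM) and Lyz2 (0.441 against 2.27 FPKM), all 4 having passed the filter only through shBmal1. Endothelial markers (9 genes) summed to 4.97 to 6.31 FPKM in shNC and 2.57 to 4.62 FPKM in shBmal1. The most abundant, Esam, was lower (4.62 against 1.11 FPKM) and Eng was not called. Tek (0.0961 against 1.16 FPKM) was higher, as were Vwf (log2 4.06) and Tie1 (log2 3.63), named after their values were seen, and these 3 passed the filter only through shBmal1.

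Fibroblast and tendon markers (11 genes) summed to 14925 to 16854 FPKM in shNC and 2119 to 2575 FPKM in shBmal1, with 10 of 10 tested lower, led by Col1a1, Col3a1 and Thy1, and Tnmd at 0. Smooth muscle and pericyte markers (9 genes) summed to 3047 to 3239 FPKM in shNC and 617 to 702 FPKM in shBmal1. They were led by Tagln, Acta2 and Pdgfrb, all lower, with 7 of 9 lower and 2 higher. The part of these differences in the results for the prostaglandin genes was not tested.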

How the data were processed

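RNA from 3 shNC and 3 shBmal1 libraries was captured on oligo-dT and sequenced in pairs, per the labels' protocols. Per the submitters' processing notes, the tools included DESeq2, edgeR, StringTie 1.3.4d, HISAT2 2.0.4 and cutadapt 1.9, whose roles are not stated. Not given in the sources used here are genome build, counting program and use of strand. The deposited table holds raw counts per gene and library and FPKM values computed by the authors, with genes without a count listed at an FPKM of 1e-04. These were treated here as having no count. Value columns not tied to a sample numbered 0.

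Low genes were removed with filterByExpr (at least 10 counts, 15 in total). A gene passed only through 1 group where all 3 libraries of that group, but fewer than 3 of the other, reached the filter's level of 0.359 CPM of the library total. The rest were TMM-scaled (factors of 0.936 to 0.956 for shNC, 1.05 to 1.06 for shBmal1) and compared by glmQLFTest after glmQLFit in edgeR 4.0.16 under R 4.3.3, with no block for replicate number. P-values were adjusted by Benjamini-Hochberg over 14342 tested genes. CPM are TMM-scaled. Means carry the SD of 3 libraries, fold changes a standard error. Ratios of FPKM were compared by an exact permutation test. Folds against a group without counts are lower bounds at 3 counts over the group. Alternatives used limma 3.58.1 and DESeq2 1.42.0. Library pairs within a group differed beyond sampling noise (chi-square divided by its degrees of freedom, 10.8 to 25.0). The procedure was tested on simulated data in which few genes differed. In the real comparison 71.3% of tested genes were called, a setting that the simulation does not cover.

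The members and lists were chosen with earlier results of these data known. Beside the members, the text names up to 2 called genes per list and direction with the smallest p, tested genes within 500 kb of Ptgs2 and Pla2g4a, the 3 most abundant markers per list and markers without a count. Others are named as chosen after their values were seen. RefSeq promoters of GRCr8 were matched by symbol. No protein sequences were used here.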

Additional observations from a re-analysis of the deposited data

How the results depend on the processing

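Over 18 alternatives (other scalings, DESeq2, limma, other filters, FPKM or TPM, a replicate block, each library left out) Ptgs2, Ptges2, Pla2g4a and Ptgs1 kept their call and direction. The ranges on the log2 scale were 3.16 to 3.68 for Ptgs2, 2.82 to 3.41 for Ptges2, −1.80 to −1.28 for Pla2g4a and −1.07 to −0.59 for Ptgs1. Hpgd (1.12 to 5.83) and Ptger4 (0.70 to 3.71) entered the main test only through shBmal1, so their repeated calls under a filter are no sign of stability. Without the filter on low counts both were called too (edgeR adjusted p = 0.00193 and 0.00381), from the same few shNC counts. Ptges3 was called in 11 of 18, fell short without the filter on low counts (0.17, adjusted p = 0.1) and reversed in TPM (−0.13) and on quantile-normalized FPKM (−0.19). Ptges, never called, reversed in TPM (−0.094), on quantile-normalized FPKM (−0.072) and without shBmal1 replicate 1, and ran from −0.12 to 0.59 as single libraries were left out. In TPM the higher genes numbered 8 rather than 13 in the 5 branch lists, 10 rather than 17 in the cyclic AMP list and 7 rather than 14 among genes annotated to arachidonic acid metabolism. In that annotated set quantile normalization gave 8 higher, and leaving out single libraries gave 9 to 14. The cause was not tested. With a replicate block, 9415 genes were called against 10233 without it, and no call of 42 named genes changed. Same-numbered libraries did not deviate together (correlations −0.0705, −0.0026 and 0.0203). No pairing by number was seen, though so few libraries per group cannot exclude one. Low counts limit Hpgd and Ptger4 most in shNC (12 and 26 counts over the group, against 94 and 63 in shBmal1). They limit Ptges more in shBmal1 (54 counts, against 180 in shNC) and Ptger2 in both groups (11 in shNC, 12 in shBmal1). The ratios of Ptgs2 to Hpgd and Ptger4 to Ptger2 could not be formed in all libraries without a pseudocount.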
